A study of Mus musculus with 4 samples.

Results

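The DNA replication and mitosis genes described here are 40 genes that dividing cells use to copy their DNA and to separate their chromosomes. They were chosen by name from the gene count table of a Foxp1 ChIP-seq study of mouse mammary epithelium, with at least 40 reads summed over its 4 libraries as the only requirement. All 40 passed, of 23128 genes that passed among 24548 in the table; the fewest reads were 54, at Aurka. The libraries are a basal cell Foxp1 ChIP, a basal cell input, a luminal cell Foxp1 ChIP and a luminal cell input, with 1 library in each group. All cells came from the mammary glands of wild-type FVB/N females aged 10 to 12 weeks, with no treatment. Chromatin immunoprecipitation (ChIP) recovers the DNA that an antibody, here to Foxp1, pulls down with its protein, and input is the same kind of chromatin with no antibody step.

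E2F factors switch on the genes of S phase, and several E2F members hold the same genes down in resting cells. Mcm2 to Mcm7 form the ring-shaped helicase that Cdc6 and Cdt1 load onto replication origins, while cyclin B with Cdk1 drives entry into mitosis and the spindle checkpoint delays anaphase until the chromosomes are attached. Foxp1 is a forkhead transcription factor, largely known as a repressor, that has been studied in the mammary gland for its part in the exit of basal stem cells from quiescence. In the mammary ducts luminal cells line the lumen, and basal cells lie around them and contract.

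Reads over gene regions totalled 3772902 in basal ChIP against 3080114 in basal input, and 3163948 in luminal ChIP against 4201459 in luminal input. A median gene of the 40 had 211 reads in basal ChIP against 163 in basal input, and 178 in luminal ChIP against 238 in luminal input. With a single library per group no test across samples was possible. Each ratio carries a 99% interval that covers counting error only, treats reads as independent molecules and compares libraries rather than conditions. A gene was called higher or lower when its ratio of scaled reads reached 1.5-fold and the interval excluded 1. No control antibody library was analysed here, so DNA that any antibody would recover cannot be told apart from DNA bound by Foxp1. DNA counts do not show which cells were present; at marker genes of the labelled cell types, 5 of 8 basal markers, among them the keratin genes Krt5 and Krt14, were called higher in the basal minus luminal difference (3.72% of all tested genes). Of 12 luminal markers, 1 (Prlr) was called lower in that difference (4.16% of all tested genes), and 7 lay above 0 with a list median of 0.03. Cd24a and Epcam were called higher in basal ChIP (4.24% of all tested genes). There 8 of the 12 luminal markers lay above 0 with a median of 0.29 (all tested genes 48.5% and -0.01). Of the 8 basal markers, Krt5 and Krt14 were called higher in basal ChIP, and 7 lay above 0 with a median of 0.53. Gata3, Krt8 and Epcam were called higher in luminal ChIP (1.5% of all tested genes). There 10 of the 12 luminal markers lay above 0 with a median of 0.31 (all tested genes 49.6% and -0.002). None of the basal markers was called in luminal ChIP, and 2 of the 8 lay above 0 with a median of -0.17. The inputs also differed at these markers. In basal over luminal input all 8 basal markers lay above 0 (49.9% of all tested genes), and Krt14 was called higher (0.709%). Of the 12 luminal markers 2 lay above 0 there, and Kit and Epcam were called lower (0.463% of all tested genes).

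Hardly any of the 40 genes stood out in Foxp1 ChIP. In basal cells 0 of 40 were called higher, against 4.24% of all tested genes, and 1 of 40 (Mis12) was called lower, against 4.06%. In luminal cells 1 of 40 (E2f5) was called higher, against 1.5% of all tested genes, and 1 of 40 (Mis12) lower, against 2.13%. These counts are near the shares over all genes. The median log2 ratio of the 40 was 0.10 in basal cells, where that of all tested genes was -0.01, and -0.04 in luminal cells, where that of all tested genes was -0.002. Log2 ratios above 0 were found for 27 of the 40 in basal cells (67.5%, with 48.5% over all tested genes) and for 18 in luminal cells (45.0%, with 49.6% over all). Centring the ratios on olfactory receptor genes, which are used mainly in sensory neurons, moved the basal median of all tested genes to 0.20 and that of the 40 to 0.31, and E2f3, E2f7, Mcm5 and Top2a were then called higher in basal cells (4 of 40, with 12.9% of all tested genes). Centring by promoter G and C content, possible for 34 of the 40, put the basal median of the members at 0.05 and that of all genes at 0.

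**Figure D1:**
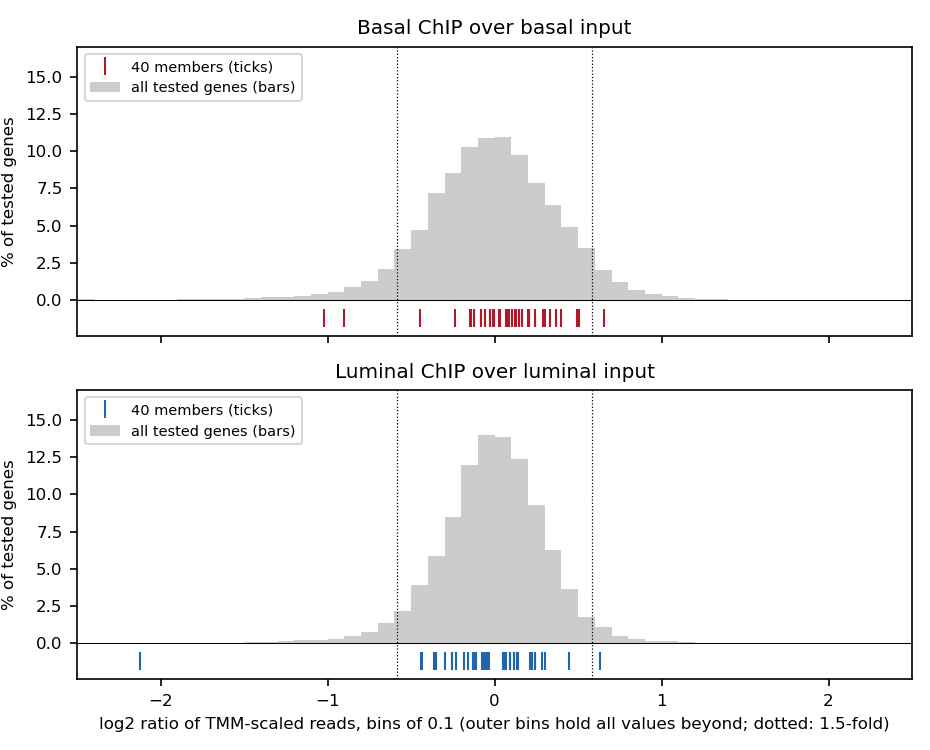
Distribution of the log2 ratio of scaled ChIP reads over own input, in basal cells (upper panel) and luminal cells (lower panel). Ticks are the 40 replication and mitosis genes, bars the percent of all 23128 tested genes per bin of 0.1, and dotted lines mark 1.5-fold. Most ticks lie within the bulk of the bars. Mis12 and Mcm7 lie in the left tail in basal cells, and Mis12 lies far to the left in luminal cells.

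Depth did not limit these calls for most of the genes, taken over the whole region counted per gene. Enrichment over a small part of that region, or outside it, was not resolved by 1 count per gene. Of the 40, 34 had 100 or more reads in each input, and for each of these a ratio of 1.51-fold would have been enough for a call. Their ratios ran from 0.902 to 1.42-fold in basal cells and from 0.737 to 1.55-fold in luminal cells. For 22 of the 34 in basal cells and 23 of the 34 in luminal cells the whole 99% interval lay inside 1.5-fold in either direction (64.7% and 67.6%). Of the 18223 tested genes with as many reads, 37.0% in basal and 50.3% in luminal cells had such an interval. For the difference between cell types it was 4 of the 34 (11.8%, with 8.59% of those genes), and at the other members the interval reached past 1.5-fold. The other 6 genes (E2f4, Mcm2, Mcm4, Mcm7, Aurka and Mis12) had 13 to 96 reads in an input. At Mcm4 and Aurka, the thinnest of them, a ratio had to reach 2.30-fold or more to be called higher.

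**Figure D2:**
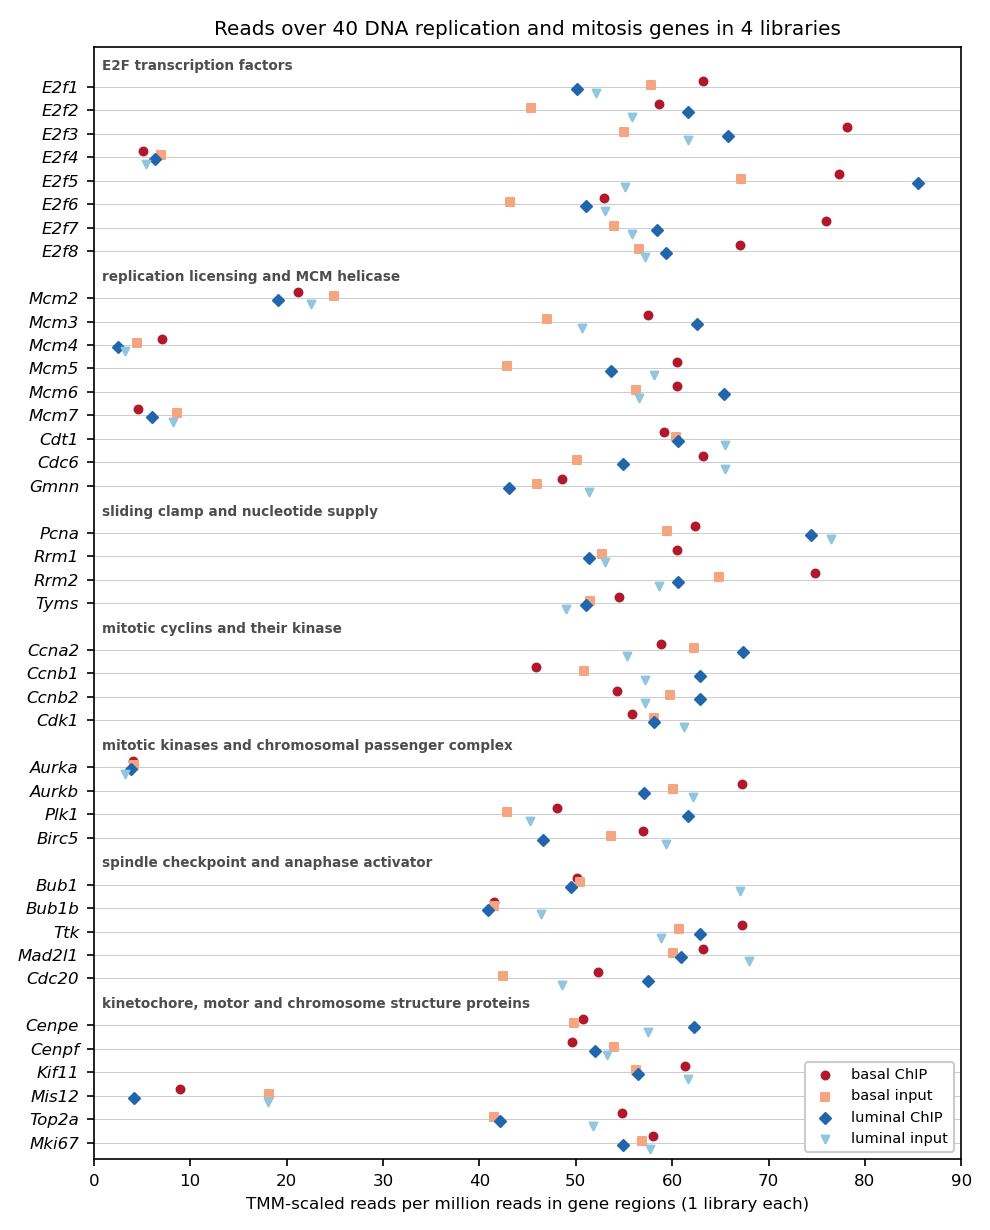
TMM-scaled CPM (reads relative to the TMM-scaled library total) at the 40 genes, grouped by role, with 1 symbol per library (basal ChIP, basal input, luminal ChIP, luminal input). E2f4, Mcm2, Mcm4, Mcm7, Aurka and Mis12 lie far to the left of the other 34 genes in all libraries, and at Mis12 both ChIP libraries lie left of both inputs.

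Of the 8 E2F genes, E2f5 was called higher, in luminal cells, and none was called in basal cells. E2f5 encodes a repressive E2F that works with the retinoblastoma relatives p107 and p130; the gene lies at chr3:14578602-14606309 (GRCm38). It had 285 reads in basal ChIP against 210 in basal input, and 268 in luminal ChIP against 235 in luminal input. Luminal ChIP thus held more reads than luminal input although its library was the smaller. The luminal ratio was 1.55-fold (99% interval 1.23 to 1.96), higher than at 98.0% of all tested genes, and the basal ratio was 1.15-fold (0.909 to 1.46). With both inputs summed as background the luminal log2 ratio of E2f5 was 0.51 and it was not called; its luminal input was low next to its basal input (67.1 scaled CPM in basal and 55.1 in luminal input).

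E2f3, an activator of S-phase genes, had 288 reads in basal ChIP against 172 in basal input, and 206 in luminal ChIP against 263 in luminal input. Its basal ratio of 1.42-fold (1.11 to 1.83) was below the fold needed for a call although the interval lay above 1, and its luminal ratio was 1.07-fold (0.834 to 1.36). E2f7, an atypical repressor that binds DNA without a DP partner, had 280 reads in basal ChIP and 169 in basal input, a ratio of 1.41-fold (1.09 to 1.82), with 183 in luminal ChIP and 238 in luminal input (1.05-fold). These were the only E2F genes with a basal interval above 1.

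The activators E2f1 and E2f2 had 233 and 216 reads in basal ChIP, against 181 and 142 in basal input. In luminal cells they had 157 and 193 reads in ChIP, against 222 and 238 in input, and none of their intervals excluded 1. E2f8, the other atypical repressor, had 247 reads in basal ChIP and 177 in basal input, and 186 in luminal ChIP and 244 in luminal input. E2f6, a repressor that acts without retinoblastoma proteins, had 195 and 135 reads in basal ChIP and input, and 160 and 226 in luminal ChIP and input. E2f4, the main E2F of resting cells, had 19 reads in basal ChIP against 22 in basal input, and 20 in luminal ChIP against 23 in luminal input, too few to call less than 1.97-fold higher in basal cells. Summed over the family, 1763 reads in basal ChIP against 1208 in basal input gave 1.24-fold (1.12 to 1.37), and 1373 in luminal ChIP against 1689 in luminal input gave 1.11-fold (1.01 to 1.22). Over all 40 genes, the family included, the summed basal ratio was 1.10-fold (1.05 to 1.15). The summed luminal interval was 0.959 to 1.05-fold. The 9 genes of origin licensing had 1.12-fold (1.01 to 1.25) in basal and 0.964-fold (0.872 to 1.07) in luminal cells. Summed basal intervals of the other roles spanned 1, with the mitotic cyclins and Cdk1 lowest at 0.930-fold. In basal cells 7 of the 8 E2F genes lay above 0 on the log2 scale (87.5%). The shares were 67.5% of the 40 and 48.5% of all tested genes. The family median was 0.27, and that of all tested genes -0.01. The summed intervals cover counting error only. Olfactory receptor genes had 2.28 times the variance of counting alone in basal and 2.12 times in luminal cells. Promoter windows of E2f1, E2f6, E2f7 and E2f8 had 66.7 to 77.3% G and C. Those of E2f2 and E2f3 had 54.7 to 78.7%. All tested genes with 66.7 to 71% had a basal median of 0.15, and those with 71.3 to 89.3% had 0.20. The part of this share in the family values was not tested.

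None of the 9 genes of origin licensing was called in either cell type. Mcm5, a helicase subunit, came nearest in basal cells, with 223 reads in basal ChIP and 134 in basal input (1.41-fold, 1.06 to 1.89), and 168 in luminal ChIP and 248 in luminal input (0.922-fold, 0.708 to 1.20). Mcm3 was the highest of the group in luminal cells with 196 reads against 216 in its input (1.23-fold, 0.952 to 1.60), with 212 in basal ChIP against 147 in basal input. Mcm6 stood at 1.08-fold in basal and 1.16-fold in luminal cells. Cdc6, which loads the helicase with Cdt1, had 233 reads in basal ChIP against 157 in basal input (1.26-fold), and 172 in luminal ChIP against 279 in luminal input (0.839-fold). Cdt1 stood at 0.979-fold and 0.927-fold, and their inhibitor geminin (Gmnn) at 1.06-fold and 0.839-fold.

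The remaining helicase genes rested on few reads. Mcm4 had 26 reads in basal ChIP against 14 in basal input, and 8 in luminal ChIP against 14 in luminal input, and its basal ratio of 1.58-fold, the highest point value of the 40, had an interval of 0.653 to 4.11. Mcm7 had 17, 27, 19 and 35 reads in basal ChIP, basal input, luminal ChIP and luminal input, with ratios of 0.534-fold (0.222 to 1.22) in basal and 0.739-fold (0.329 to 1.57) in luminal cells. Mcm2 had 78, 78, 60 and 96 reads in the same order of libraries, with ratios of 0.849-fold and 0.850-fold. The intervals of all 3 genes spanned 1 in both cell types.

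Genes of the sliding clamp and of nucleotide supply lay close to their inputs. Pcna (the clamp that holds polymerase on DNA), Rrm1 and Rrm2 (ribonucleotide reductase) and Tyms (thymidylate synthase) stood between log2 0.07 and 0.21 in basal cells and between -0.04 and 0.06 in luminal cells, with 0 of 4 called in either. Pcna, for example, had 230 reads in basal ChIP against 186 in basal input, and 233 in luminal ChIP against 326 in luminal input.

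None of the mitotic cyclin genes or Cdk1 was called, and each of their intervals spanned 1 in both cell types. Ccna2 had 217 reads in basal ChIP and 195 in basal input (0.945-fold), and 211 in luminal ChIP and 236 in luminal input (1.22-fold, 0.948 to 1.56). Ccnb1 had 169 and 159 reads in basal ChIP and input, and 197 and 244 in luminal ChIP and input (0.902-fold and 1.10-fold). Ccnb2 stood at 0.908-fold and 1.10-fold, and their kinase gene Cdk1 at 0.961-fold and 0.949-fold. Thus all 4 lay below 0 on the log2 scale in basal cells, or all 4 above it once ratios were centred on olfactory receptor genes, and 3 of 4 lay above it in luminal cells with either scaling.

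Among the mitotic kinases, Plk1, which acts at centrosomes and kinetochores, had the highest luminal value, with 193 reads in luminal ChIP and 193 in luminal input (1.36-fold, 1.04 to 1.78), and 177 in basal ChIP and 134 in basal input (1.12-fold). Its luminal interval lay above 1 but the ratio was under 1.5-fold. Aurkb and survivin (Birc5), both of the chromosomal passenger complex, stood at 1.12-fold and 1.06-fold in basal cells. Birc5 had 210 reads in basal ChIP against 168 in basal input, and 146 in luminal ChIP against 253 in luminal input (0.785-fold in luminal cells, 0.596 to 1.03), where Aurkb stood at 0.919-fold. Aurka had 15, 13, 12 and 14 reads in basal ChIP, basal input, luminal ChIP and luminal input.

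In the spindle checkpoint, Bub1 was the lowest gene in luminal cells after Mis12. It had 185 reads in basal ChIP and 158 in basal input (0.994-fold), and 155 in luminal ChIP and 286 in luminal input (0.737-fold, 0.566 to 0.956), which is short of a call. Its luminal input was also the higher of its inputs (50.5 scaled CPM in basal and 67.1 in luminal input). Bub1b, Ttk (the Mps1 kinase), Mad2l1 and the anaphase activator Cdc20 ranged from 0.999 to 1.23-fold in basal and from 0.880 to 1.18-fold in luminal cells. Cdc20 was highest in both, with 193 and 133 reads in basal ChIP and input, and 180 and 207 in luminal ChIP and input.

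Mis12, a subunit of the kinetochore complex that links centromeres to microtubules, was the 1 gene called in both cell types, lower in each. It lies at chr11:71019568-71027371 (GRCm38). It had 33 reads in basal ChIP against 57 in basal input, and 13 in luminal ChIP against 77 in luminal input. The basal ratio was 0.491-fold (0.269 to 0.874) and the luminal ratio 0.230-fold (0.0936 to 0.488), lower than at all but 0.0692% of tested genes in luminal cells. The inputs were alike, with 18.2 scaled CPM in basal and 18.1 in luminal input. The basal call was lost when the interval was widened by the spread among olfactory receptor genes, and also when ratios were centred on those genes. The other genes of the kinetochore, motor and chromosome structure group were not called: Cenpe, Cenpf, Kif11 (the spindle motor Eg5) and the proliferation marker Mki67 lay between 0.916 and 1.09-fold in both cell types, and Top2a (topoisomerase II alpha) stood at 1.32-fold in basal and 0.813-fold in luminal cells.

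**Figure D3:**
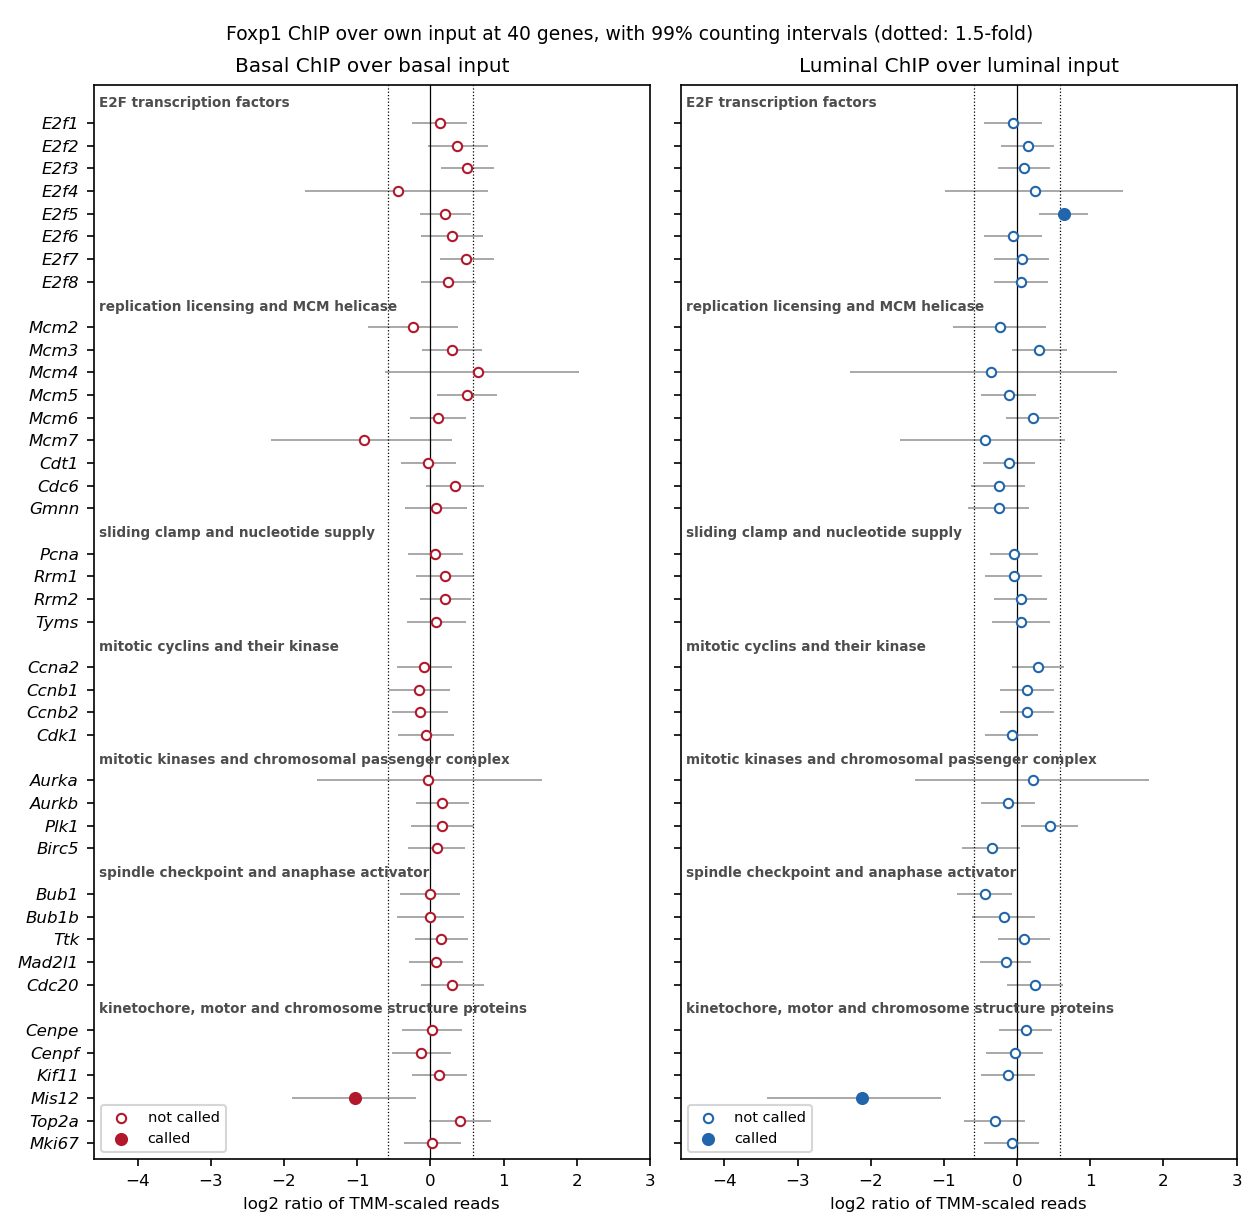
Log2 ratio of scaled ChIP reads over own input at the 40 genes, in basal cells (left) and luminal cells (right), by role. Bars are 99% counting intervals, filled points are called and dotted lines mark 1.5-fold; Mis12 is the filled point on the left side of both panels and E2f5 the 1 on the right side in luminal cells.

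What the reads at a gene stand for was read from the inputs. No source used here states the counted region, so the reads in both inputs were compared with the distance between a gene's annotated start and the nearest start of another counted gene. Autosomal genes with the next start 10000 bp or more away had a median of 363 input reads (11568 genes). With a start on the opposite strand within 500 bp upstream the median was 60 (1097 genes), at 500 to 1000 bp it was 25 (70 genes), and at 5000 to 6000 bp it was 361.5 (72 genes). With the opposite-strand start downstream, as for Mcm7, Aurka and Mis12, the median was 77 within 500 bp (449 genes) and 98.5 at 500 to 1000 bp (192 genes). Among the windows tried, 1000 to 5000 bp each way from the start, the part of the window shared with no other gene followed the input counts best for 3000 bp before to 2000 bp after the start (Pearson's r = 0.736 across 5090 genes, which are not independent replicates). A window of 3000 bp on both sides gave 0.733. The counts are therefore read here as reads near gene starts, with reads in the windows of more than 1 gene left out.

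This bears on Mcm7, Aurka, Mis12 and Mcm2, among the 6 genes with few reads. Mcm7 and Ap4m1 have annotated starts 90 bp apart, Aurka and Cstf1 241 bp, Mis12 and Derl2 273 bp, and Mcm2 and Tpra1 3471 bp. For Mcm4 and E2f4 the annotation used gave no strand, so the distance from their starts to other starts was not measured. The gene bodies of Mcm4 and Prkdc lie 43 bp apart, and those of E2f4 and Elmo3 90 bp. Prkdc had 18 reads in basal input and 24 in luminal input, and Elmo3 had 116 and 167. In a window of 3000 bp before to 2000 bp after, the stretch of Mis12 shared with no other gene runs from 3000 to 1727 bp before its start, that of Aurka from 3000 to 1759 bp and that of Mcm7 from 3000 to 1910 bp. In that window the start sites of these 3 genes would not be counted at all, and their values would stand for DNA 1727 bp or more before them. Derl2 had 42 reads in basal ChIP and 54 in basal input (log2 -0.60), and 33 in luminal ChIP and 56 in luminal input (-0.32), so that both point values of the gene beside Mis12 were below 1-fold as well, though less so. Pcna does not follow the pattern, with 512 reads in the inputs although its annotated start is 158 bp from that of Cds2.

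**Figure D4:**
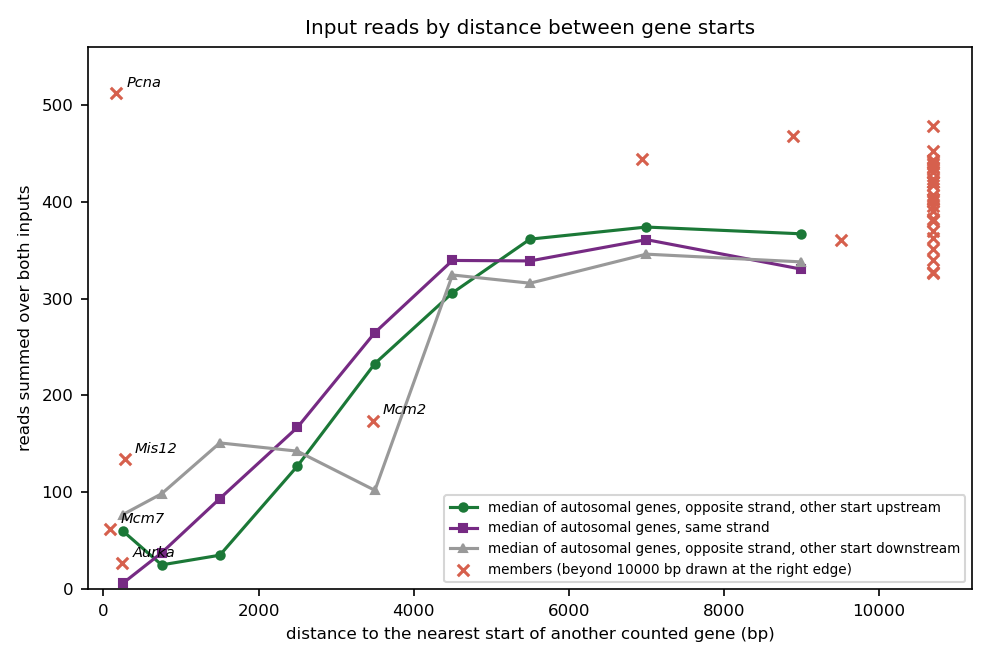
Reads summed over both inputs against the distance to the nearest start of another counted gene, in bp. Lines join the medians of autosomal genes by strand of the other gene, and crosses are the members with an annotated strand (those beyond 10000 bp drawn at the right edge); Mcm7, Aurka, Mis12 and Mcm2 lie at short distances and low counts, and Pcna lies at a short distance with a high count.

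The difference between cell types was taken as the basal minus the luminal log2 ratio. It was called for 2 of 40 genes, Top2a and Mcm5, both higher in basal cells, against 3.72% of all tested genes, and 0 of 40 were lower, against 4.16%. Top2a had 202 reads in basal ChIP against 130 in basal input, and 132 in luminal ChIP against 221 in luminal input. As scaled CPM these were 54.8 in basal ChIP against 41.5 in basal input, and 42.1 in luminal ChIP against 51.8 in luminal input. Basal ChIP was thus above its input and luminal ChIP below its input, and the difference was 0.69 (standard error 0.23 from counting; 1.62-fold, 99% interval 1.08 to 2.42). Mcm5 had 60.5, 42.8, 53.6 and 58.2 scaled CPM in basal ChIP, basal input, luminal ChIP and luminal input, and its difference was 0.61 (standard error 0.21; 1.53-fold, 1.04 to 2.24).

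Both differences rest in part on the inputs. Basal input held 0.801 times the scaled reads of luminal input at Top2a and 0.736 times at Mcm5, where the interval of 0.553 to 0.973 excluded 1. With both inputs summed as background the input term drops out and the difference becomes basal over luminal ChIP. It was 0.38 at Top2a and 0.17 at Mcm5, and neither was called. The fall in value follows from leaving out the inputs and is not a separate test of them. Neither difference was called with the widened interval either. Cdc6 followed at 0.58 (1.498-fold, 1.04 to 2.16), just short of the fold needed, also with a low basal input (0.767 times luminal input). Mis12 (1.06) and Mcm4 (0.96) had larger differences with intervals that spanned 0. At the other end were E2f4 (-0.69), Mcm7 (-0.47) and E2f5 (-0.43, standard error 0.18), none called. The median difference of the 40 was 0.13, where that of all tested genes was 0.003. It was 0.07 with both inputs summed, that is for basal over luminal ChIP (all genes 0.004). Over 34 genes centred by promoter G and C content the median difference was 0.06 (all genes 0). Across the 40 genes, the ratios of the cell types had a Pearson's r of 0.50 and a Spearman's rho of 0.10, and without Mis12 these were 0.10 and 0.03 over 39 genes; the genes share the same 4 libraries and are not replicates.

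**Figure D5:**
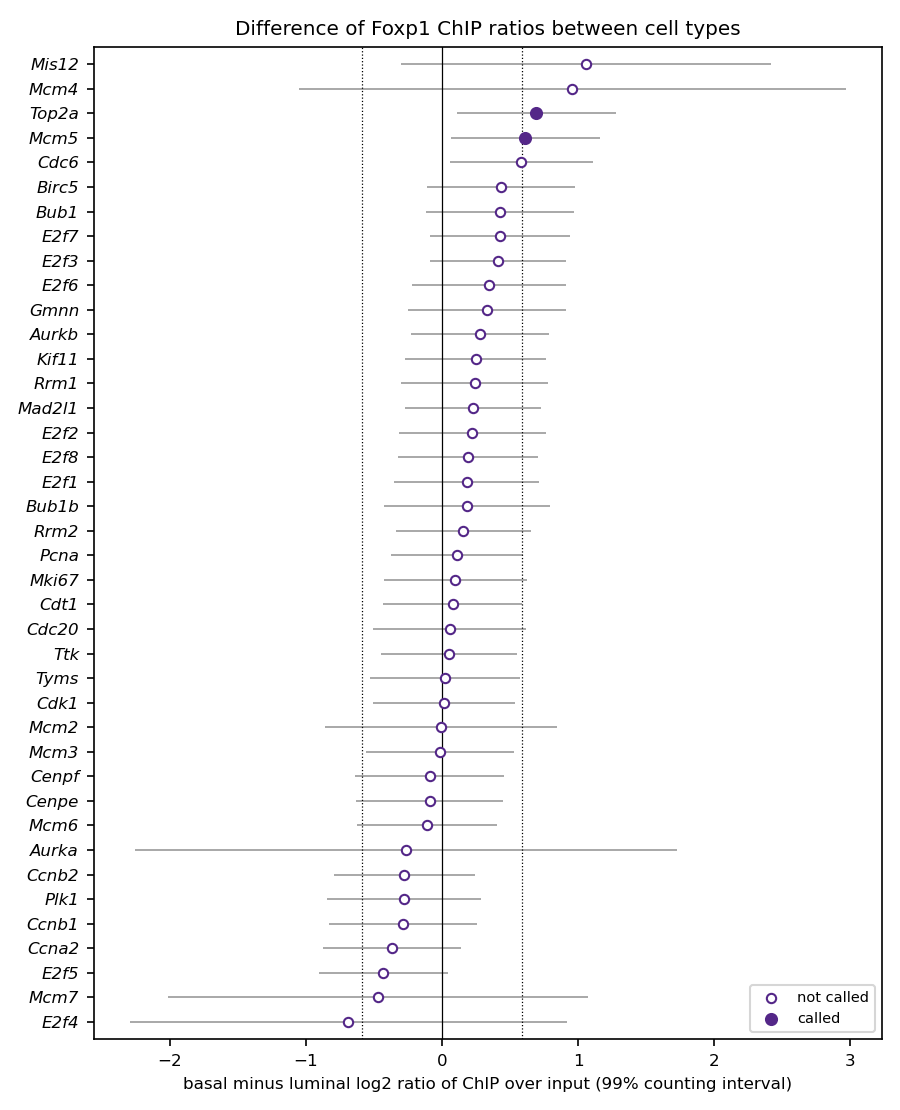
Basal minus luminal log2 ratio of ChIP over input for each of the 40 genes, from highest to lowest. Bars are 99% counting intervals, dotted lines mark 1.5-fold and filled points are called; Top2a and Mcm5 are the filled points, and the widest bars belong to genes with few reads.

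Promoter sequences of Top2a and Mcm5 are shown because these genes carry the called difference between cell types and their starts lie in windows shared with no other gene, unlike that of Mis12. Each line gives the 250 bases before the start of the promoter annotation, 5′ to 3′ on the gene's strand, from RefSeq on GRCm38.p6. Top2a is chr11:99024190-99024439 on the minus strand and Mcm5 is chr8:75109259-75109508 on the plus strand. The gene starts used for the distances above differ and lie inside these stretches, at 99024199 for Top2a and 75109468 for Mcm5. Capitals mark matches on either strand to an E2F core (TTNNCGC, each N being C or G), the cell cycle homology region core (TTNGAA, N being C or T), the CCAAT box and forkhead cores.
Top2a: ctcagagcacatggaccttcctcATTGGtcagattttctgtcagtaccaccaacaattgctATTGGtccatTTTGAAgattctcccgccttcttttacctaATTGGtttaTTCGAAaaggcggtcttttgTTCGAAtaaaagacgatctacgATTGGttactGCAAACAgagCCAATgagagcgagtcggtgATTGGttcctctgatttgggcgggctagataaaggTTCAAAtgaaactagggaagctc
Mcm5: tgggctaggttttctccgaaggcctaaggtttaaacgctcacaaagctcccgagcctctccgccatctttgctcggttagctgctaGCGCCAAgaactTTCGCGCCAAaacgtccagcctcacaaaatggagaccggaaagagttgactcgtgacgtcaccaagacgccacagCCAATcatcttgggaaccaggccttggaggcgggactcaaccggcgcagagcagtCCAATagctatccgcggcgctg
The Top2a stretch holds 6 CCAAT boxes, 4 cell cycle homology cores, of which the one 23 bases before the start is read on the opposite strand, and 1 forkhead core, GCAAACA, 88 bases before the start. Mcm5 holds 3 E2F cores, the last pair overlapping, and 2 CCAAT boxes in the bases shown, with no forkhead core.

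Promoter windows (250 bases before to 50 after a start) were found for 34 of the 40 genes, 37 windows in all; the others, E2f4, E2f5, Mcm4, Gmnn, Ccna2 and Aurkb, are named only. The E2F core was in 16 of the 37 windows (43.2%), against 12.3% of the 21035 windows of tested genes. Cell cycle homology cores were in 17 (45.9%), against 17.0%, and CCAAT boxes in 29 (78.4%), against 37.9%. Forkhead cores (TGTTTAC, its variant TGTTTGC and the variant TATTTAC) were in 3 windows (8.11%), those of Top2a, Tyms and Mcm7, against 9.58%. Such matches are letters in a window and not measured binding sites. The share of G and C in the window had a median of 58.3% over the 34 genes, and of 56.3% over the 17432 tested genes with a window. Over all tested genes the median log2 ratio changed with this share, from -0.21 in the tenth of genes lowest in G and C to 0.20 in the highest in basal cells, and from -0.06 to 0.11 in luminal cells; its part in the values above was not tested beyond centring on it.

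The inputs against each other give the background without an antibody. Basal over luminal input, 0 of 40 genes were called higher (0.709% of all tested genes) and 0 of 40 lower (0.463%). The highest was Mcm4 (log2 0.45, 14 reads in each input) and the lowest Mcm5 (-0.44). Log2 ratios above 0 were found for 14 of the 40 (35.0%, with 49.9% over all tested genes), and the median was -0.06. Summed over the 40, basal input held 0.937 times the scaled reads of luminal input (0.897 to 0.979, counting error only). The variance of the 40 genes around a common split of reads was 1.89 times that of counting alone in basal ChIP and input, 2.96 times in luminal ChIP and input and 1.37 times between the inputs. Without Mis12 it was 1.57, 2.28 and 1.40 times. Olfactory receptor genes had 2.28, 2.12 and 1.31 times in the same order, and all tested genes 4.46, 2.87 and 1.91 times.

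Other genes of the same pathways, listed by name, showed a few calls in each direction. Calls over all tested genes were 4.24% higher and 4.06% lower in basal cells, 1.5% and 2.13% in luminal cells, and 3.72% and 4.16% in the difference. Other replication genes numbered 54, with 3 called higher and 6 lower in basal cells (median log2 0.07), and 1 higher and 2 lower in luminal cells (0.02). Other mitosis genes numbered 80 tested of 86 listed, with 4 called higher and 1 lower in basal cells (-0.04), and 0 higher and 2 lower in luminal cells (0.01). Called higher in basal cells were Hmmr (log2 1.40), a spindle-associated hyaluronan receptor, with 31 reads in basal ChIP and 10 in basal input, Cdca8 (1.35), the passenger complex protein borealin, with 42 and 14, and Wee1 (0.77), the kinase that restrains Cdk1, with 401 and 200. Top2b (0.70), the topoisomerase II also present in non-dividing cells, Rfc5 (0.70), a clamp loader subunit, and Mcmbp (0.64), an MCM-binding protein, followed. Rfc5 was also called higher in luminal cells (0.71), with 280 reads in luminal ChIP and 233 in luminal input.

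Among those called lower in basal cells were Mad2l2 (-1.63), Orc1 (-1.48) and Orc6 (-1.12) of the origin recognition complex, Lig1 (-1.11) and Tk1 (-0.91), with 8 to 35 reads in basal ChIP and 21 to 64 in basal input. In luminal cells Ect2 (-1.19), Uhrf1 (-0.69) and Kif14 (-0.67) were among those called lower. In the basal minus luminal difference 1 of the 54 replication genes was called higher (Uhrf1, 1.27) and 4 lower (Orc6, -1.65; Tk1, -1.43; Lig1, -1.40; Gins3, -0.67). Of the 80 mitosis genes 4 were called higher (Hmmr, 2.31; Kif15, 1.46; Ect2, 1.41; Kif14, 0.97) and 2 lower (Racgap1, -0.72; Cdc25b, -0.68). Of 10 partners of E2F and of the DREAM complex, none was called in either cell type, and in the difference 2 were called higher, Tfdp1 (0.78), the DP partner of E2F factors, and Lin37 (0.73).

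Cell cycle genes outside replication and mitosis were counted in the same way. Over all tested genes the shares were 4.24% called higher in basal cells and 2.13% lower in luminal cells. In the difference they were 3.72% higher and 4.16% lower. The lists are short, so that a single call is a large share of either. Of 11 CDK inhibitor and retinoblastoma family genes, Cdkn1b (p27) was called higher in basal cells with 358 reads in basal ChIP and 163 in basal input (log2 0.90), and Cdkn1a (p21) lower in luminal cells with 108 reads in luminal ChIP and 222 in luminal input (-0.60). In the difference Cdkn1b (0.87) and Rb1 (0.67) were called higher and Rbl2 (-0.63) lower. The list medians were 0.20 in basal and 0.02 in luminal cells. Of 7 G1 cyclin and kinase genes tested, Cdk6 was called higher in basal cells (0.71), with medians of 0.41 in basal and 0.33 in luminal cells, and Ccne2 was called lower in the difference (-0.65). Whether these lists differ from the 40 genes was not tested.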

How the data were processed

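Foxp1 ChIP and input libraries of basal and luminal mammary cells, 1 of each, were analysed from the counts per gene that the authors deposited. Per the labels' protocols, single reads of 75 to 85 bp were sequenced. Per the submitters' processing notes, reads were counted with featureCounts on mm10. The sources used here do not name the aligner, the versions, how duplicates were treated or the counted region. The series table and the per-sample files hold equal counts for 24548 of 24548 genes. The members, gene lists and tests were chosen with earlier results of these data known.

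Across all genes with 40 or more counts, libraries were scaled with TMM (edgeR 4.0.16, R 4.3.3). Log2 ratios have exact Clopper-Pearson intervals at 99% (scipy 1.17.1). The difference between cell types has a normal interval from the 4 counts, each plus 0.5. With both inputs summed it is basal over luminal ChIP, with a Clopper-Pearson interval. No count model was run, since each group has 1 library, and no p-values are printed. The scripts were tested on simulated data. The genes given in full are those called, the 5 highest and 5 lowest ratios per cell type and all E2F genes; the rest are given by ratios or ranges. From other lists up to 6 called genes per direction are named, apart from 1 gene that is not reported here. Starts, strands and promoters came from RefSeq on GRCm38.p6, the assembly of mm10: 24480 gene IDs had a position and 19282 a strand. Alternatives were other scalings (total count, DESeq2 1.42.0 size factors, centring on 1107 olfactory receptor genes), count filters of 1 and 200, 2-fold, a 95% interval, an interval widened by the receptor spread, both inputs summed, and centring by promoter GC. Marker lists of stromal, endothelial, leukocyte and fat cells had 0 of 12 genes called higher in either cell type and 1 lower in each, Dcn in basal and Plin1 in luminal cells.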

Additional observations from a re-analysis of the deposited data

Results flagged for a closer look

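The basal and luminal ratios of Top2a and Mcm5 differed by the interval of the difference itself, by 0.69 and 0.61 on the log2 scale (basal minus luminal). Each rests on 1 library per group, and 2 of 40 genes compares with 3.72% called higher among all tested genes. The cause was not tested.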

How the results depend on the processing

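No paired analysis was possible because each group holds 1 library, and for the same reason no replicate could be left out. Under none of the alternatives did a called gene change sign. With ratios centred on olfactory receptor genes, which moved the median of all genes to 0.20 in basal and 0.07 in luminal cells, 4 members (E2f3, Mcm5, Top2a and E2f7) were called higher in basal cells, where 12.9% of all genes were, 0 were called lower there, and 3 (Bub1, Mcm5 and Cdc6) were lower in basal than in luminal input, as were 3.88% of all genes. In that setting the members' medians were 0.31 in basal cells, 0.0255 in luminal cells, 0.28 for the difference (all genes 0.15) and -0.27 between the inputs (all genes -0.21). With total counts the basal median was 0.039, and that of all genes -0.07. With both inputs summed the luminal median was 0.007, and no member was called higher in luminal cells (0). The difference, then basal over luminal ChIP, had no member called higher (0). Centring by promoter GC, which left 34 members and dropped E2f5, gave 0 called higher in luminal cells and a median difference of 0.0567. The 2-fold rule gave 0 called higher in luminal cells and 0 in the difference. The widened interval gave 0 lower in basal cells and 0 higher in the difference, and a filter of 200 counts, which removes Mis12, gave 0 lower in both cell types. Cdc6 was called in the difference with DESeq2 size factors (0.59) and with receptor centring (3 members, with 8.68% of all genes), and Mis12 with the 95% interval. The cause of these changes was not tested, beyond the genes that a filter or a missing promoter window removes. At E2f4, Mcm4, Mcm7 and Aurka the reads were too few for a change of 1.5-fold to be called. Mis12 had to reach 1.55-fold in basal and 1.52-fold in luminal cells to be called higher, and 0.566-fold in either to be called lower. Mcm2 had to fall to 0.631-fold in basal and 0.610-fold in luminal cells to be called lower.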
